A study of Mus musculus with 60 samples.

Results

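The spleen libraries of a mouse line that carries a CD74-NRG1 fusion transgene were set against the libraries of its other normal tissues. The set was chosen by label and holds every normal library titled spleen, which gave 6 spleens of 6 mice among 30 normal tissue libraries and 60 libraries in the whole series. The other 24 libraries came from liver (8), lung (7), muscle (6), brain (2) and kidney (1) of 9 mice in all, each spleen being from another mouse. Per the labels, every one of these animals was a Rosa26CD74-NRG1/Flp mouse. The parents were Rosa26FSF.CD74-NRG1 mice, whose fusion gene is silenced by a stop cassette between FRT sites, and Rosa26Flp mice, whose recombinase removes that cassette in the early embryo, so that the fusion is made in nearly every tissue. Spleens and the other tissues therefore share the transgene and the Flp allele, no spleen without the transgene was used here, and ages are not in the labels. Mice with spleen libraries also gave 5 livers, 5 lungs, 4 muscles and 1 kidney. All of these mice except M00246 also have tumour samples in the series, which were not used. There are 2 each from M00236, M00245, M00247 and M00248 and 1 from M00249, and the 2 of M00247 are titled intestine.

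The mouse spleen joins a blood filter to a lymphoid organ. Its red pulp removes worn red cells through macrophages that recycle iron, and in mice it also keeps making red cells, platelets and granulocytes in adult life. Its white pulp holds B cell follicles and T cell zones, separated from the red pulp by the marginal zone with its own B cells and macrophages. Red cell precursors need the transcription factors Gata1, Tal1 and Klf1, which switch on globins, haem enzymes and the membrane skeleton of the red cell.

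Expression was measured by 3' end RNA sequencing, in which reads are counted near the end of each transcript, from sections of frozen tissue. Total counts were 5799763 to 8192695 in spleens and 6592664 to 10033943 in the other tissues, and 21733 of 54838 genes passed the filter on low counts. Values are CPM, a gene's counts scaled to 1e6 counts of its library, unless stated otherwise, and they compare 1 gene between libraries, not genes with each other. In bulk tissue, fewer cells of a type and less RNA per cell cannot be told apart. Fold changes are log2 differences from edgeR's quasi-likelihood test, spleen minus the mean of the 5 other tissues with equal weight for each tissue, or spleen minus 1 named tissue. Adjusted p-values are Benjamini-Hochberg values over all genes tested. Brain and kidney have 2 libraries and 1 library, so that contrasts with them rest on the spread shared with the other tissues. Each mouse gave 1 spleen library. The p-values rest on a spread pooled for each gene over the libraries of all tissues, not on the spread among spleens alone. The main fit takes the 30 libraries as independent, although they came from 9 mice.

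Among the mice with spleen libraries, the libraries of 3 stood apart. The spleen of mouse M00247 had far more transcripts of granulocytes and mast cells than the other 5 spleens. Mouse M00246 had the lowest Nrg1 level in each of its 4 tissues, with 2.34 CPM in spleen, 0.675 in liver, 1.30 in muscle and 5.37 in lung, and its spleen also held the most transcripts of pancreatic enzymes. The spleen of mouse M00245 had the lowest sums of the cell division lists and of the red cell lists other than globins, which were lowest in the M00246 spleen, and it had the highest sums of B and T cell genes. Among 5668 genes with a mean of at least 20 CPM in spleen, the M00245 spleen was the highest in 2197, and it was the lowest by more than 2-fold in 188, against 183 for the M00247 spleen and at most 11 for each of the other 4. List counts were repeated without these libraries, and larger changes are given beside the main count. Mouse M00246 was also left out in every tissue. For mice M00245 and M00247 only the spleen was left out, and their other tissues stayed in the comparison. The lung of mouse M00238, which gave no spleen, also stood apart. Its chi-square over genes per degree of freedom was 180 to 219 against each other lung, and 20.35 to 59.18 between the other lungs. Its marginal zone and follicular genes summed to 2622 CPM, against 565 to 714 CPM in the other lungs. No fit left this lung out, so its part in the contrasts with lung was not tested.

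Klf1, Cr2 and Cd74 marked the tissue as labelled. Klf1, the transcription factor of red cell precursors, had 150.3, 17.04, 103, 74.1, 86.9 and 169 CPM in the spleens of mice M00236, M00245, M00246, M00247, M00248 and M00249, in that order, against at most 4.33 CPM in any other library. Cr2, the complement receptor of mature B cells and follicular dendritic cells, had 107, 373, 301, 27.98, 282 and 140.5 CPM in the same order of spleens, against at most 14.7 CPM elsewhere. Every spleen lay above every other library for both genes. For Klf1 the difference was large (log2 fold change 7.06 ± 0.54 (SE), adjusted p = 8.54e-12), and for Cr2 it was alike (log2 fold change 6.99 ± 0.63 (SE), adjusted p = 2.2e-10). Cd74, the invariant chain that escorts MHC class II molecules, had 533, 1327, 934, 565, 1009 and 514 CPM in the spleens, against 207 to 1435 in lungs and at most 78.00 in the other tissues. Spleens and lungs overlapped for Cd74, because the M00238 lung had 1435 CPM and the other 6 lungs at most 449 CPM. Spleen exceeded lung on average (log2 fold change 0.97 ± 0.35 (SE), adjusted p = 0.0231), but adjusted p lay between 0.0547 and 0.259 without the M00245 spleen, without mouse M00246, without the M00245 and M00247 spleens, without the 3 spleens holding pancreas transcripts, or with plain library totals. Cd74 and Nrg1 are also the parts of the fusion gene, and the count table does not say which of their reads came from the transgene.

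**Figure D1:**
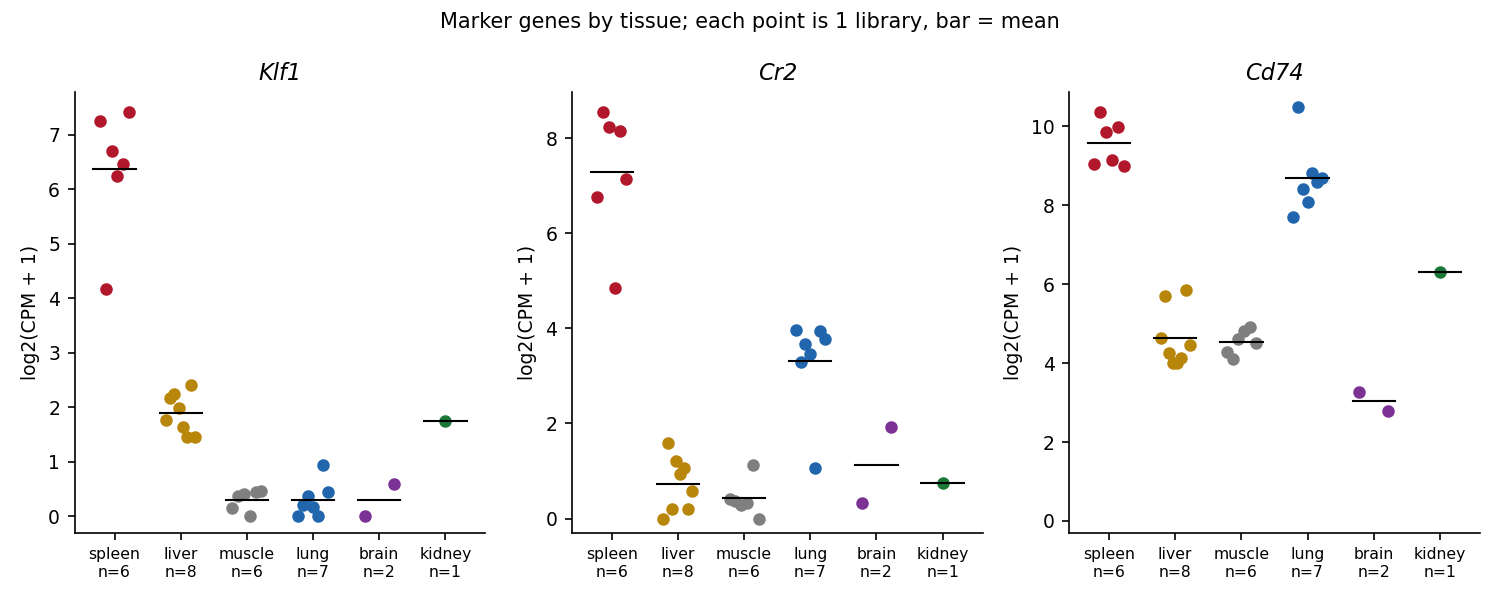
Level of Klf1, Cr2 and Cd74 as log2(CPM + 1) in each tissue, spleen on the left; each point is 1 library and the bar is the tissue mean. All 6 spleens lie above the other 24 libraries for Klf1 and Cr2, and spleens and lungs overlap for Cd74.

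Of the 21733 genes tested, 6202 (28.5%) were higher in spleen than in the mean of the 5 other tissues and 5633 (25.9%) were lower. With plain library totals in place of TMM factors the split was 7378 higher and 4431 lower, and the median log2 fold change of all genes was 0.18 in place of -0.06. Higher in spleen than in each of the 5 tissues, in all 5 contrasts, were 1079 genes (4.96%), and 776 (3.57%) were lower in all 5. The 6 spleens lay above all 24 other libraries for 717 genes (3.30%) and below them all for 282 (1.30%), and 491 genes met both the test in 5 contrasts and the separation upward. Against lung, 4243 genes (19.5%) were higher in spleen and 5663 (26.1%) lower, and against liver 7298 (33.6%) were higher and 5603 (25.8%) lower. Counts of list members below are to be read against these shares of all genes. With library totals these were 2844 higher and 6909 lower against lung, and 11277 higher and 3410 lower against liver, with all-gene medians of -0.30 in place of -0.03 and 1.08 in place of 0.29. Without mouse M00246 in any tissue, 5775 genes were higher than the mean of the other tissues, 5698 of them among the 6202. Without the M00247 spleen the number was 5890, with 5705 shared.

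Regulators of red cell formation were higher in spleen with a single exception. Of the 12 regulators, 11 were higher in spleen than in the mean of the other tissues, against 28.5% of all genes tested, and none was lower, against 25.9% of all genes. Their median log2 fold change was 4.43, against -0.06 over all genes. Against lung 10 were higher (19.5% of all genes), 10 were higher than in each of the 5 tissues (4.96% of all genes), and 7 had every spleen above every other library (3.30% of all genes). Gata1, the factor that commits cells to the red cell and platelet lines, had 94.7, 13.6, 62.1, 79.3, 46.7 and 99.7 CPM in the spleens in mouse order, against at most 3.52 CPM elsewhere (log2 fold change 8.59 ± 0.64 (SE), adjusted p = 5.74e-12). Tal1, its partner in the same DNA-bound complex, had 296, 38.5, 134, 189.6, 186 and 363 CPM in the spleens, against 21.04 to 34.5 in lungs and 7.43 to 17.99 in brains, the next tissue (log2 fold change 4.96 ± 0.42 (SE), adjusted p = 6.93e-11). Both were lowest in the M00245 spleen and highest in the M00249 spleen. Gfi1b, a repressor needed for red cells and platelets, had 6.17 to 50.2 CPM in spleens, against at most 1.16 elsewhere (log2 fold change 8.06 ± 0.74 (SE), adjusted p = 3.3e-10). Nfe2, which acts on globin and platelet genes, had 8.77 to 75.4 CPM, against at most 24.1 in the M00247 lung (log2 fold change 6.45 ± 0.81 (SE), adjusted p = 1e-07). Here the M00245 spleen lay below that lung, and the other 5 spleens lay above it.

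Further regulators are shared with other blood cells. Zfpm1, the cofactor of Gata1, had 44.6 to 180.0 CPM in spleens against at most 37.01 in the M00246 liver (log2 fold change 3.68 ± 0.31 (SE), adjusted p = 5.12e-11). Lyl1 had 20.98 to 45.7 CPM against at most 20.3 in the M00247 lung, and it was the one regulator besides Myb that was highest in the M00247 spleen. Lmo2, the bridging protein of the Tal1 complex, had 65.03 to 212 CPM in spleens and 44.1 to 136 in lungs, so that these tissues overlapped, yet it passed the test against lung (log2 fold change 1.33, adjusted p = 0.00228). Ikzf1, a lymphoid and early blood factor, was nearly even among spleens at 132 to 215 CPM, against at most 99.6 elsewhere. Myb, a factor of dividing progenitors, had 20.9 to 53.8 CPM in spleens and 8.07 to 23.4 in lungs and missed the threshold against lung (adjusted p = 0.0747). Epor, the receptor of erythropoietin, had 52.1, 8.77, 27.3, 1.84, 15.9 and 48.8 CPM in the spleens in mouse order, against at most 10.6 elsewhere (log2 fold change 4.01 ± 0.56 (SE), adjusted p = 5.52e-07). The M00247 spleen had the lowest Epor and the lowest Ldb1 (2.61 CPM), below some lungs in both, while its Klf1 and Gata1 were within the range of the other spleens. Ldb1, the adaptor of the complex, did not pass against the mean of the tissues (log2 fold change 0.49 ± 0.27 (SE), adjusted p = 0.134), and without the M00247 spleen its log2 fold change was 0.72 with an adjusted p of 0.00264.

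The letters AGATAA or TGATAA, which Gata1 and related factors are known to recognise, were looked up on both strands of RefSeq promoter windows (250 bases before to 50 after a gene's start, build GRCm38.p6). Of 73 genes in the 5 red cell lists, 54 matched a window by symbol, and 24 of their 71 windows (33.8%) held the letters, against 6115 of 32851 windows of all genes (18.6%). A match is a description of the letters only. Stretches of 30 bases from 8 of these promoters are shown, because these genes were among those highest in every spleen; the matched letters, or their reverse complement TTATCT or TTATCA, are in capitals.
Klf1: tttgcctgggtcTTATCAgggaagacagcc
Gfi1b: tctgtgaagtttTGATAAgcaaatgtggct
Rhag: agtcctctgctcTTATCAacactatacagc
Rhd: cccggcagcctgAGATAAgacctttggcgg
Kel: cctgagaaactaAGATAAaagaggaggtga
Hemgn: acctgtgcagtgTGATAAagaaagtggaat
Alas2: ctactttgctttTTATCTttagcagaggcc
Hba-a1: tgtccgggcaacTGATAAggattccctgca
On the plus strand these lie at chr8:84901890-84901919 for Klf1, chr17:40811106-40811135 for Rhag, chr4:134864481-134864510 for Rhd, chrX:150547319-150547348 for Alas2 and chr11:32283477-32283506 for Hba-a1. On the minus strand they lie at chr2:28622085-28622114 for Gfi1b, chr6:41704364-41704393 for Kel and chr4:46404179-46404208 for Hemgn. The capitals begin 80 bases before the annotated start in Klf1, 31 in Rhag, 43 in Rhd and 56 in Kel.

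Of the red cell lists, genes of the cell surface and membrane skeleton had the largest median difference. All 20 listed genes were higher in spleen than in the mean of the other tissues, with a median log2 fold change of 7.04, 19 were higher than in lung, and 12 had every spleen above every other library. Rhag, a subunit of the Rh ammonia channel, had 273, 26.5, 105, 41.97, 88.97 and 216 CPM in the spleens in mouse order, against at most 2.31 elsewhere (log2 fold change 8.83 ± 0.72 (SE), adjusted p = 3.03e-11). Rhd, the Rh antigen, had 223, 40.1, 159, 193, 180.3 and 443 CPM, against at most 2.83 (log2 fold change 8.75 ± 0.66 (SE), adjusted p = 7.67e-12). Both were lowest in the M00245 spleen, and the lowest spleen still exceeded the highest other library more than 10-fold. Slc4a1, the chloride and bicarbonate exchanger band 3, had 134 to 1205 CPM in spleens and at most 18.2 elsewhere.

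The rule for naming genes passed over antigen receptor genes, gene models without a proper name and mitochondrial genes. Immunoglobulin genes were therefore not ranked, although 5 of 12 immunoglobulin constant genes also had every spleen above every other library. By this rule, the 15 largest differences among genes with every spleen above every other library and a mean of at least 20 CPM in spleen were Cldn13, Rhag, Car1, Kel, Rhd, Hemgn, Gata1, Ermap, Slfn14, Tspo2, Ctse, Gfi1b, Btnl10, Apol10a and Epb42. Their log2 fold changes lay between 7.53 for Epb42, the membrane protein 4.2, and 9.21 for Cldn13, a claudin of mouse red cell precursors. Car1, the carbonic anhydrase of red cells, had 53.7 to 324 CPM in spleens, against 1.08 to 7.55 in livers and 0 to 1.37 in lungs. Kel, the blood group endopeptidase, had 10.6 to 88.4 CPM against at most 1.21, Ermap, a surface protein of red cells, 37.8 to 333 CPM against at most 2.71, and Hemgn, a nuclear protein of red cell precursors, 57.9 to 663 CPM against at most 5.00. Ctse, the aspartic protease cathepsin E, had 511, 72.7, 341, 129, 281 and 622 CPM in the spleens in mouse order, against at most 5.66. Apol10a had 33.02, 2.60, 6.61, 44.1, 14.8 and 37.7 CPM in the same order, and it was the only one of the 15 that was highest in the M00247 spleen. Slfn14 (12.2 to 112 CPM), Tspo2 (14.1 to 106 CPM), Btnl10 (10.6 to 105 CPM) and Epb42 (9.74 to 101 CPM) were likewise lowest in the M00245 spleen.

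Some membrane genes had similar levels in 1 other tissue. Aqp1, the water channel of red cells and capillaries, had 68.3 to 578 CPM in spleens and 337 to 672 in lungs (log2 fold change against lung -0.22, adjusted p = 0.578). Ank1 had 19.96 to 215 CPM in spleens against 67.97 to 190.0 in muscles, Add2 20.8 to 163 in spleens against 104 to 109.8 in brains, and Sptb 35.9 to 269.5 in spleens against 31.6 to 59.2 in muscles, and in each the M00245 spleen lay below some of those libraries. These 3 encode cytoskeletal proteins that muscle or nerve cells also use.

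Haem synthesis and iron uptake genes were higher too, with smaller differences. Of 18 listed genes 17 were tested, 16 were higher than the mean of the other tissues and none lower, with a median log2 fold change of 2.20. The exception was Slc11a2, an iron transporter with 15.6 to 44.2 CPM in spleens and 9.88 to 35.1 elsewhere. Against lung all 17 were higher, and against liver, which makes haem for its own enzymes, 11 were higher and 1 was lower (33.6% and 25.8% of all genes). That gene was Hebp1, a haem-binding protein, with 33.3 to 98.1 CPM in spleens and 112 to 159.8 in livers. Alas2, the red cell form of the first enzyme, had 330.1 to 890.5 CPM, against at most 227 in the M00249 lung (log2 fold change 3.65 ± 0.47 (SE), adjusted p = 1.58e-07). Slc25a37, the iron carrier of mitochondria, had 424 to 1459 CPM, against at most 145 (log2 fold change 4.50 ± 0.31 (SE), adjusted p = 1.37e-12). Tfrc, the transferrin receptor, had 869.9, 77.1, 344, 259, 331 and 640.0 CPM in the spleens in mouse order, against 25.9 to 85.2 in lungs, so that the M00245 spleen fell within the lung range and the other 5 did not. Cpox, Tmem14c, Alad and Fam210b were not past the threshold against liver (log2 fold changes 0.30, -0.12, 0.18 and -0.57), and with library totals the values were 1.05, 0.65, 0.92 and 0.18, the first 3 of them past it in edgeR's test.

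Globin transcripts took 13.0 to 24.9% of the counts of spleens, against 1.58 to 8.47% of lungs and at most 1.91% of the other tissues. The adult chains Hba-a1, Hba-a2, Hbb-bs and Hbb-bt were higher in spleen in all contrasts, but they are near-identical in pairs and reads can be divided between the copies. Hba-a1 had 39045 to 79073 CPM in spleens and at most 25545 elsewhere, and Hbb-bs had 30945 to 82475 CPM and at most 28141 elsewhere. The embryonic chains Hba-x, Hbb-y, Hbb-bh1 and Hbb-bh2 stayed at or below 1.21 CPM in every spleen and were too low to test. Blood held in a tissue also brings globin transcripts. Spleens had at least 17.04 CPM of Klf1 and 134 CPM of Slc4a1, against 0.369 and 18.2 CPM in the M00249 lung, whose globin share was the largest of the other tissues (8.47%). The M00245 spleen, with 13.8% globin, had 17.04 CPM of Klf1, and the M00246 spleen, with 13.0% globin, had 103 CPM. Globin share and Klf1 level therefore gave these spleens a different order.

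**Figure D2:**
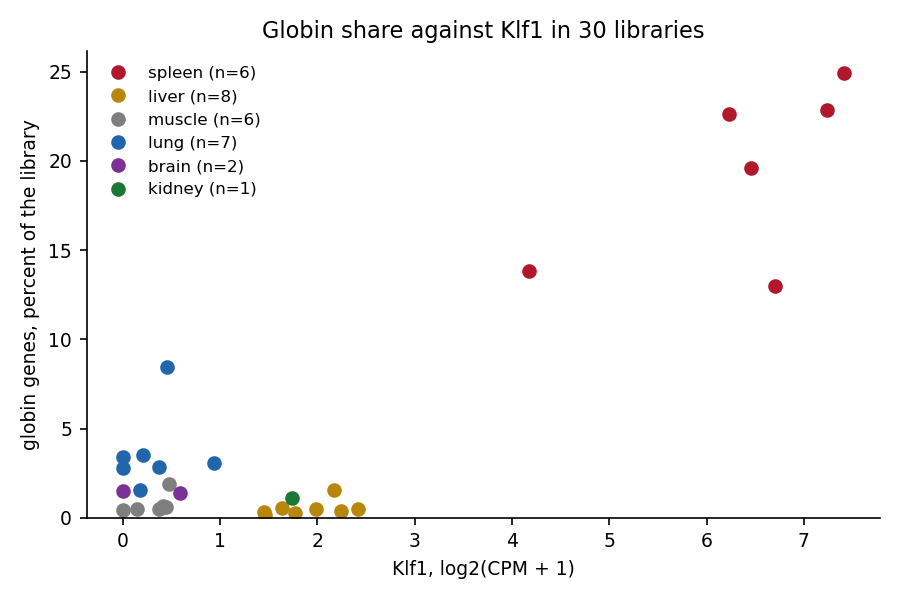
Share of counts taken by globin genes (percent) against the level of Klf1 as log2(CPM + 1) in 30 normal libraries, coloured by tissue. The 6 spleens lie between 13.0 and 24.9% globin and apart from all other libraries on both axes, while lungs reach 8.47% globin with less than 1 CPM of Klf1.

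Enzymes and late genes of red cells were higher in spleen for all 16 listed genes (median log2 fold change 3.52), and 9 separated completely. Car2, the second carbonic anhydrase, had 305 to 1748 CPM in spleens against at most 243 in kidney. Tent5c and Mkrn1 were more even among spleens, at 326 to 610.4 and 299 to 547 CPM, against at most 128 and 179 elsewhere. Gclm, of glutathione synthesis, was not higher than in liver, with 62.7 to 259 CPM in spleens and 119.9 to 173 in livers.

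Genes of cell division were higher in spleen as a group. All 19 mitosis genes and all 16 DNA replication genes were higher than the mean of the other tissues, with median log2 fold changes of 4.71 and 3.60, and 18 mitosis genes had every spleen above every other library. Mki67, the proliferation antigen, had 1044, 176, 526, 1088, 738 and 1153 CPM in the spleens in mouse order, against at most 105 in the M00247 lung (log2 fold change 6.10 ± 0.75 (SE), adjusted p = 6.93e-08). The M00245 spleen was the lowest, and it still exceeded that lung. Top2a, the DNA topoisomerase of dividing cells, had 206 to 1029 CPM in spleens against at most 183, and Cdk1, the mitotic kinase, 34.7 to 219 CPM against at most 27.7. Aurkb was the mitosis gene that did not pass all 5 contrasts and did not separate, with 4.06 to 32.8 CPM in spleens and at most 7.58 in the M00247 lung. Mcm7, a subunit of the replicative helicase, had 94.5 to 377 CPM in spleens against at most 64.7, and Gins2 overlapped with lung (19.96 to 54.9 CPM in spleens, 18.1 to 87.05 in lungs). Which cells of the spleen divide cannot be read from bulk libraries, since red cell precursors, granulocyte precursors and lymphocytes all use these genes.

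Genes of stem and early progenitor cells were divided between both directions. Of 17 listed genes 6 were higher and 5 lower than the mean of the other tissues, near the 28.5% and 25.9% of all genes (median log2 fold change -0.13, or 0.10 with library totals), and against lung 3 were higher and 12 lower (19.5% and 26.1% of all genes). Kit, the stem cell factor receptor, had 12.6 to 25.2 CPM in spleens and 50.8 to 213 in lungs (log2 fold change -2.12 ± 0.31 (SE), adjusted p = 1.82e-06). Gata2, a factor of early progenitors and also of vessel cells, had 4.77 to 9.97 CPM in spleens and 58.1 to 329 in lungs (log2 fold change -3.89 ± 0.40 (SE), adjusted p = 2.73e-09), and Cd34, which vessels also carry, 7.69 to 15.1 CPM and 49.1 to 137 CPM (log2 fold change -2.59 ± 0.28 (SE), adjusted p = 5.46e-09). Flt3, the receptor of lymphoid and dendritic progenitors, was among the higher ones, with 16.2, 27.8, 21.2, 1.08, 10.3 and 12.2 CPM in the spleens in mouse order against at most 9.75 elsewhere. The endothelial list was lower in spleen than in lung for 11 of 12 genes, and its part in the values of the stem cell list was not tested.

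Of 14 tested genes for signals around red cell formation, 5 were higher and 3 lower than the mean of the other tissues, against 28.5% and 25.9% of all genes. Epo, the hormone itself, had a count of 0 in all 30 libraries, which allows up to 0.299 to 0.517 CPM depending on the library. Hamp, the liver hormone that limits iron release, had 0.517 to 2.85 CPM in spleens and 722 to 2280.1 in livers (log2 fold change -10.18 ± 0.54 (SE), adjusted p = 4.68e-16). Erfe, which red cell precursors release under erythropoietin and which lowers Hamp in liver, had 5.70, 0.812, 1.65, 1.08, 1.03 and 0 CPM in the spleens in mouse order and at most 1.30 CPM elsewhere. Bmp4 and Kitl, stromal signals of stress red cell formation in mouse spleen, were lower in spleen than in lung (5.84 to 20.98 against 84.99 to 369 CPM, and 33.5 to 61.2 against 174 to 291 CPM). Pim1, a target of Stat5 signalling, had 120.4 to 293 CPM in spleens and 8.19 to 180.1 CPM elsewhere.

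Megakaryocyte and platelet genes were higher in spleen than in the mean of the other tissues but not higher than in lung. Of 20 genes 17 were higher than the mean (28.5% of all genes), and 0 were higher than lung (19.5% of all genes). The number lower than lung was 4 (median -0.42), against 26.1% of all genes. It was 7 with library totals and with the mouse as a block, and 6 without the M00247 spleen (median -0.89). It was 5 without the M00245 and M00247 spleens, 2 without mouse M00246 and 1 without the M00245, M00246 and M00248 spleens. Pf4, platelet factor 4, had 201, 65.9, 183, 521, 94.1 and 250.5 CPM in the spleens in mouse order, against 165 to 447 in lungs and 15.98 to 44.03 in muscles. Itga2b, the platelet integrin, had 42.99, 22.9, 30.3, 146, 23.3 and 42.6 CPM in the spleens and 52.1 to 149 in lungs. For both, the M00247 spleen was the highest of the 6 and the other 5 lay within or below the lung range.

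Granule genes of granulocyte precursors were carried mainly by 1 mouse. Mpo, the myeloperoxidase made at the promyelocyte stage, had 25.4, 3.57, 51.8, 571, 7.41 and 27.5 CPM in the spleens in mouse order. In other tissues it reached 123 CPM in the liver and 14.9 CPM in the lung of the same mouse M00247, and at most 2.22 CPM in any other library outside spleen. All 10 genes of primary granules and their regulators were higher in spleen than the mean of the other tissues, and all 10 were higher than lung. Without the M00247 spleen 8 were still higher than the mean (median log2 fold change 4.04), and 3 were higher than lung. Against liver 3 were higher, near the 33.6% of all genes, with 8 with the mouse as a block and 2 without the M00247 spleen. The summed level of the list was 88.6, 51.6, 178, 1443, 46.7 and 92.6 CPM in the spleens in mouse order, against 8.56 to 78.1 CPM in lungs and 0.791 to 498 CPM in livers.

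S100a8, a calcium-binding protein of mature neutrophils, had 209, 39.3, 522, 8894, 77.1 and 253 CPM in the spleens, 51.4 to 2899 in lungs and 1.86 to 1584 in livers, and both maxima outside spleen were from mouse M00247. Its difference from the mean of the tissues (log2 fold change 5.87 ± 1.71 (SE), adjusted p = 0.00462) did not hold without the M00247 spleen (2.76, adjusted p = 0.0632). That fit kept the liver and lung of mouse M00247, which held the maxima outside spleen. Leaving mouse M00247 out of every tissue was not done. All 16 genes of later granules and neutrophils were higher than the mean of the other tissues, 9 without the M00247 spleen. Against lung 2 were higher and 2 lower (19.5% and 26.1% of all genes). The counts against lung were 0 higher and 3 lower without the M00247 spleen, 3 and 4 with the mouse as a block, 0 and 2 with library totals, 0 and 2 without mouse M00246, and 1 was lower when any other single spleen was left out. Lyz2, the lysozyme of macrophages and granulocytes, was one of the 2 lower ones, with 369 to 1284 CPM in spleens and 1942 to 8967 in lungs. Against liver 5 of these 16 genes were higher, near the 33.6% of all genes. The number was 14 with the mouse as a block, 12 with library totals, 3 without mouse M00246 and 2 without the M00247 spleen. Basophil and mast cell genes were higher than the mean for 8 of 9, for 4 with the mouse as a block and for 4 without the M00247 spleen. The mast cell proteases Tpsb2, Mcpt4 and Cpa3 had 196, 149 and 99.8 CPM in that spleen, against at most 1.55, 1.10 and 3.17 CPM in the other 5 and at most 19.7, 14.5 and 18.7 CPM in other tissues, where the highest were muscles.

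**Figure D3:**
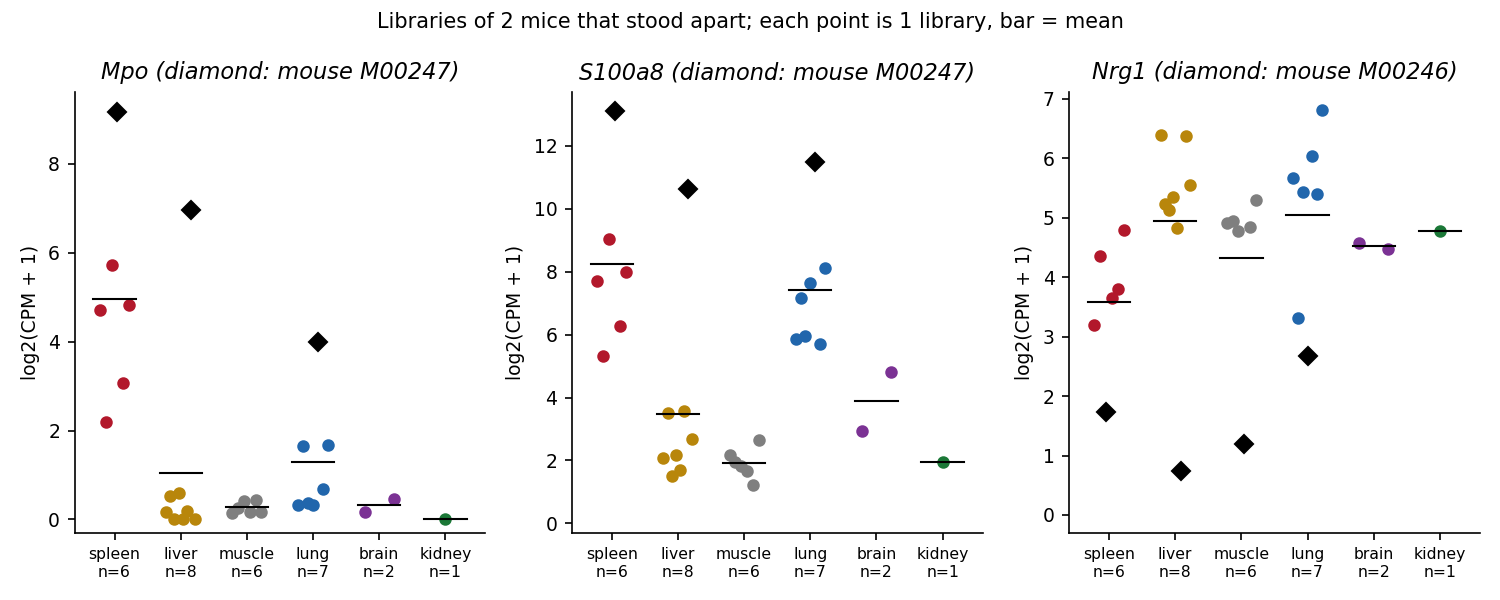
Level of Mpo, S100a8 and Nrg1 as log2(CPM + 1) by tissue, spleen on the left; each point is 1 library, the bar is the tissue mean and the diamond marks mouse M00247 (Mpo, S100a8) or M00246 (Nrg1). Mouse M00247 is the highest of its tissue in spleen, liver and lung for both granule genes, and mouse M00246 is the lowest of its tissue in spleen, liver, muscle and lung for Nrg1.

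B cell genes were higher in spleen throughout. All 20 genes were higher in spleen than in the mean of the other tissues (median log2 fold change 5.79) and higher than in lung (median 2.43), 19 were higher than in each tissue and 7 separated completely. Cd79a, a signalling chain of the B cell receptor, had 95.2, 299.8, 231, 153, 225 and 109 CPM in the spleens in mouse order, against at most 92.8 in the M00247 lung (log2 fold change 6.28 ± 0.45 (SE), adjusted p = 3.77e-12). The M00236 spleen lay just above that lung. Ms4a1, which encodes the B cell antigen CD20, had 131 to 477 CPM in spleens and 11.04 to 264 in lungs, and the M00247 lung exceeded 2 of the 6 spleens. Pax5, the factor that keeps B cell identity, had 77.95 to 315 CPM in spleens and 15.9 to 107 in lungs. Ebf1 and Cd72 were higher than in lung with smaller differences (log2 fold changes 1.36 and 1.21), and Ebf1 was not past the threshold without the M00245, M00246 and M00248 spleens (0.65, adjusted p = 0.0632 in edgeR's test). Fat, muscle or nerve tissue also expresses this gene, which had 26.4 to 46.8 CPM in muscles. The octamer letters ATTTGCAT, known from B cell promoters, occurred in 1 of 17 promoter windows of 15 matched B cell genes (5.9%, in Blnk) and in 570 of all 32851 windows (1.7%).

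Marginal zone and follicular B cell genes were higher than the mean for 8 of 11, or 5 without the M00245, M00246 and M00248 spleens. Those spleens had the highest sums of this list (1056.5, 797 and 627 CPM, against 184 to 409 CPM in the others). Fcer2a, the low-affinity IgE receptor of follicular B cells, had 19.4, 55.3, 53.7, 0.307, 33.5 and 18.9 CPM in the spleens in mouse order, against 1.67 to 6.13 in lungs and 0 to 0.441 in muscles (log2 fold change 6.97 ± 0.75 (SE), adjusted p = 6.38e-09). The M00247 spleen was below every lung here, and it was also the lowest spleen for Cr2 and for Ighd, the IgD heavy chain (3.54 CPM, against 79.4 to 284 in the other 5). Dtx1, a target of Notch2 in marginal zone B cells, was higher than lung (log2 fold change 3.28), with 13.2 to 68.2 CPM in spleens, but brains reached 33.9 to 39.6 CPM. S1pr1, Cd9 and S1pr3, receptors and a tetraspanin shared with vessels, were lower than in lung. Germinal centre genes were higher than the mean for 7 of 12, against 28.5% of all genes, or for 4 with the mouse as a block.

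Immunoglobulin constant genes were higher in spleen for all 12 listed, with a median log2 fold change of 7.20. Immunoglobulin genes together took 2.02 to 7.27% of counts in spleens, against at most 0.619% in lungs and 0.057% in the other tissues. Ighm, the IgM heavy chain, had 6358, 11612, 16804, 2602, 13010 and 9092 CPM in the spleens in mouse order and at most 1549 elsewhere (log2 fold change 7.43 ± 0.73 (SE), adjusted p = 1.18e-09). Ighg3, the IgG3 heavy chain, had 295, 103, 4304, 659, 315 and 5.13 CPM, a range of more than 800-fold, with the highest value in the M00246 spleen and the lowest in the M00249 spleen, which lay within the lung range of 0.985 to 21.7. Ighg2b had 276 to 1288 CPM and Igha 198 to 1269.5 CPM, with the M00249 lung at 749 CPM of Igha. Iglc1 was highest in the M00247 spleen at 1478 CPM, against 140.0 to 234 in the other 5, while Iglc2 and Iglc3 were lowest there. Constant genes of the same family are similar in sequence, so reads can be shared among them.

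Plasma cell genes were higher than the mean for 11 of 13 and lower for 1. Against liver 7 were higher and 4 lower (33.6% and 25.8% of all genes), or 9 and 1 with library totals. Jchain, which links IgM and IgA chains, had 762, 1224, 761, 163, 643 and 636 CPM in the spleens in mouse order and at most 184 elsewhere. Sdc1, a plasma cell marker that epithelia also make, was the one lower than the mean, with 6.61 to 26.8 CPM in spleens and 67.9 to 157 in livers. All 10 MHC class II genes were higher than the mean (median 3.83) and 8 were higher than in lung. H2-Ob and H2-DMb2, parts of the peptide loading machinery of B cells, separated completely (24.9 to 159.7 against at most 22.5 CPM, and 52.00 to 274 against at most 44.8 CPM). H2-DMa and H2-DMb1 were not past the threshold against lung (adjusted p = 0.216 and 0.202).

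T cell genes were higher than the mean for all 25 listed (median 4.35) and higher than lung for 22, with 10 higher than lung when the 3 spleens with pancreas transcripts (M00245, M00246 and M00248) were left out. These 3 spleens also had the highest T cell sums, with 951, 626 and 455 CPM against 166 to 344 CPM in the other 3. Leaving them out removes the highest T cell values, so the lower count cannot be tied to pancreas transcripts. Their summed pancreas genes were 39.4 to 1180 CPM, against 17.5 to 27.5 CPM in the other 3, and the part of that difference in the T cell result was not tested. Cd3e, a chain of the T cell receptor complex, had 16.1, 52.1, 30.1, 10.1, 18.8 and 12.4 CPM in the spleens in mouse order, against 2.57 to 10.9 in lungs (log2 fold change 4.35 ± 0.54 (SE), adjusted p = 7.32e-08), and the M00247 spleen lay within the lung range. Foxp3, the factor of regulatory T cells, had 6.00 to 14.7 CPM in spleens against at most 2.69. Zap70 was lower than in liver, with 2.15 to 12.3 CPM in spleens and 8.94 to 21.3 in livers. Natural killer and cytotoxic genes were higher than the mean for all 15 and higher than lung for 6. Ccl5 had 73.3 to 161 CPM in spleens and 17.5 to 90.01 in lungs, and Gzma, a granzyme, 2.46 to 4.71 CPM and 0.383 to 22.6 CPM. Of 14 dendritic cell genes 11 were higher than the mean. Xcr1, the receptor of cross-presenting dendritic cells, had 8.30 to 23.4 CPM in spleens against at most 8.00, whereas Clec9a was lower than in lung (2.77 to 12.5 CPM in spleens and 25.9 to 53.8 CPM in lungs).

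Red pulp macrophage genes were mostly higher in spleen. Of 24 genes 21 were higher and 2 lower than the mean of the other tissues (median 2.14), 20 were higher than lung, and against liver, which has Kupffer macrophages, 14 were higher and 4 lower. Spic, the haem-induced factor that red pulp macrophages need, had 76.1, 73.2, 94.99, 62.9, 65.7 and 60.3 CPM in the spleens in mouse order, against 0.395 to 7.22 in livers and 0.127 to 2.46 in lungs (log2 fold change 6.67 ± 0.55 (SE), adjusted p = 3.5e-11; log2 fold change 3.79 ± 0.44 (SE), adjusted p = 1.17e-08 against liver). Vcam1, an adhesion molecule of these macrophages, had 639.5, 817, 701, 511, 545 and 493 CPM in the spleens and at most 138 elsewhere (log2 fold change 4.32 ± 0.30 (SE), adjusted p = 1.54e-12). Hmox1, which breaks down haem, had 70.8 to 118 CPM against at most 23.01, and Itgad, an integrin of red pulp macrophages, 6.76 to 33.8 CPM against at most 1.53. Slc40a1, the iron exporter ferroportin, had 129.9 to 310.2 CPM in spleens and 58.2 to 147 in livers (log2 fold change 0.12 against liver, or 0.95 and past the threshold with library totals), and Cd5l had 78.6 to 270.3 CPM in spleens and 45.9 to 380.3 in livers (log2 fold change -0.69, not past the threshold). For Cd5l against liver the value was 0.039 with library totals, -0.81 with the mouse as a block (adjusted p = 0.0224) and -1.02 without the M00247 spleen (adjusted p = 0.036), and edgeR's test called the last 2. Trf, the plasma iron carrier made by hepatocytes, and Fth1, the ferritin heavy chain, were the 2 lower ones.

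Of 8 marginal zone macrophage genes 7 were higher than the mean. Against liver 3 were higher and 1 lower (33.6% and 25.8% of all genes), or 6 and 1 with library totals. The sums overlapped, with 202 to 493 CPM in spleens and 79.0 to 252 CPM in livers. Cd209b, the lectin SIGN-R1, had 6.47, 23.9, 24.8, 8.46, 21.6 and 19.3 CPM in the spleens in mouse order, against at most 6.98 (log2 fold change 3.58 ± 0.47 (SE), adjusted p = 2.06e-07), and the M00236 spleen lay below that value. Marco, a scavenger receptor, had 73.5 to 265 CPM in spleens and 6.72 to 139 in livers. Monocyte genes were higher than the mean for 6 of 10, and against lung 0 were higher and 2 lower (19.5% and 26.1% of all genes). With the mouse as a block 3 were higher and 5 lower than lung, 4 were lower without the M00247 spleen, and 1 was lower without the M00245, M00246 and M00248 spleens. The stroma and its chemokines were higher than the mean for 15 of 20 and lower for 3. Madcam1, the addressin of marginal sinus lining cells, had 3.54 to 10.6 CPM in spleens and at most 0.303 elsewhere (log2 fold change 7.28 ± 0.69 (SE), adjusted p = 5.57e-10). Ccl19, a chemokine of the T cell zone, had 25.8 to 101 CPM in spleens against at most 8.49. Ccl21a, its partner, had 62.5, 287, 225, 6.15, 126 and 33.8 CPM in the spleens in mouse order and 17.6 to 147 in lungs, with the M00247 spleen below every lung. Tlx1 and Nkx2-3, homeobox factors that the spleen needs to form, had 8.46 to 43.01 and 6.96 to 16.6 CPM in spleens, and muscles reached 6.23 to 33.9 and 2.99 to 6.10 CPM. Among 12 endothelial genes 1 was higher than the mean and 8 lower, against 28.5% and 25.9% of all genes. The higher one was Stab2, a scavenger receptor of sinus endothelium, with 22.3 to 49.5 CPM in spleens, 14.03 to 20.5 in livers and 3.31 in kidney.

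**Figure D4:**
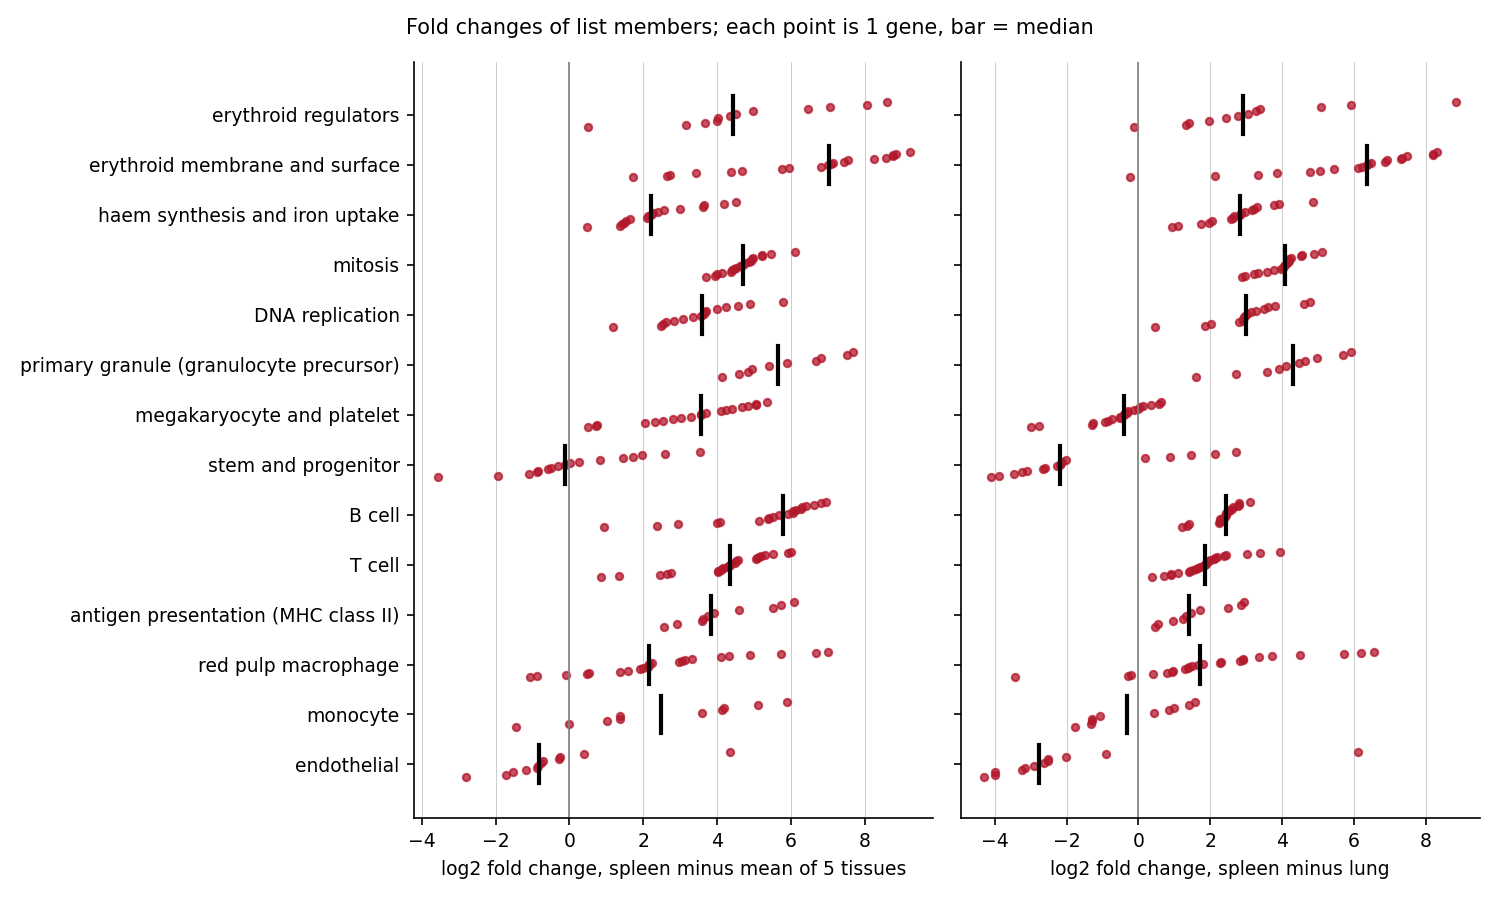
Log2 fold change of each tested member of 14 gene lists, spleen minus the mean of 5 tissues on the left and spleen minus lung on the right; each point is 1 gene and the bar is the list's median. Members of the red cell, cell division and B cell lists lie to the right of 0 in both panels except Ldb1 and Aqp1 against lung, while the megakaryocyte, stem cell, monocyte and endothelial lists have medians below 0 against lung.

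At the other end, 252 genes were lower in spleen in all 5 contrasts with every spleen below every other library, against 3.57% of all genes for the contrasts and 1.30% for the separation, each taken alone. By the rule for naming genes, the 8 largest such differences were in Mal2, Slc4a4, Slc47a1, Pllp, Mfsd4b1, Eps8l2, Ldhd and Ngef. Mal2, a membrane protein of polarised epithelia, had 0.345 to 1.95 CPM in spleens, against 207 to 979.8 in lungs and 11.6 in kidney, the lowest of the other libraries. Slc4a4, a sodium bicarbonate cotransporter, had 0.487 to 3.28 CPM in spleens, 1676 in kidney and 4.74 to 8.69 in muscles, the lowest of the others. Slc47a1, a cation exporter of liver and kidney, had 0.172 to 0.388 CPM in spleens and 41.8 to 97.8 in livers. Pllp, Mfsd4b1, Eps8l2, Ldhd and Ngef were at most 0.487, 0.244, 0.649, 0.906 and 1.03 CPM in spleens. Log2 fold changes of the 8 genes lay between -6.49 and -5.80, and at such low spleen counts the fitted value depends on the software's prior.

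The spleens differed among themselves in red cell, lymphocyte and granulocyte transcripts, and over the widest ranges in pancreas genes (67.5-fold) and adipocyte genes (60.1-fold). Summed over the 20 membrane genes, the level was 4669, 1029, 2404, 3275, 3374 and 5762 CPM in the spleens in mouse order, a 5.60-fold range, against 117 to 1001 CPM in the other 24 libraries. The 12 regulators summed to 1322, 524, 875, 927, 848 and 1378 CPM (2.63-fold), the 19 mitosis genes to 3869, 918, 2349.6, 3904, 2856 and 4784 CPM (5.21-fold) and the 20 B cell genes to 1059.9, 3373, 2456, 1827, 2414 and 1299.7 CPM (3.18-fold). The M00249 and M00236 spleens were the highest for regulators and membrane genes and the 2 lowest for B cell genes, and the M00245 spleen was the reverse in both. Of the 20 membrane genes, 19 had their lowest value in the M00245 spleen and 17 their highest in the M00249 spleen. CPM values of a library share 1 total, so that more of 1 kind of transcript lowers all others. With globin, immunoglobulin and mitochondrial genes left out of the totals, the ranges were 6.40-fold for membrane genes, 5.96-fold for mitosis genes and 2.93-fold for B cell genes, and with TMM-scaled CPM they were 7.81-fold, 7.26-fold and 2.40-fold. Without the M00245 spleen the ranges fell to 2.40-fold for membrane genes, 1.62-fold for regulators and 2.04-fold for mitosis genes.

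T cell genes summed to 344, 951, 626, 166, 455 and 283 CPM in the spleens in mouse order, a 5.71-fold range, with the M00247 spleen lowest and the M00245 spleen highest. The range was 3.36-fold without the M00247 spleen and 3.76-fold without the M00245 spleen. Megakaryocyte genes had a 6.58-fold range (875, 295, 674, 1943, 351 and 914 CPM), which was 3.10-fold without the M00247 spleen. Primary granule genes had a 30.9-fold range, or 3.80-fold without that spleen. The sum of red pulp macrophage genes had the narrowest range of the 13 lists compared, 1.48-fold, with 4335 to 6398 CPM in all 6 spleens. This sum is not particular to these macrophages, since it was 9301 to 23362 CPM in livers and 6315 CPM in kidney. The median SD of log2(CPM + 1) of its members among spleens was 0.32, against 0.39 over all genes tested. Some members, such as Itgad and Cd5l, ranged more widely than the sum. The M00247 spleen combined high granulocyte, mast cell and megakaryocyte transcripts with middling red cell sums and low T cell, Cr2, Fcer2a and Ighd levels. Its mitosis sum of 3904 CPM was below only that of the M00249 spleen (4784 CPM).

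**Figure D5:**
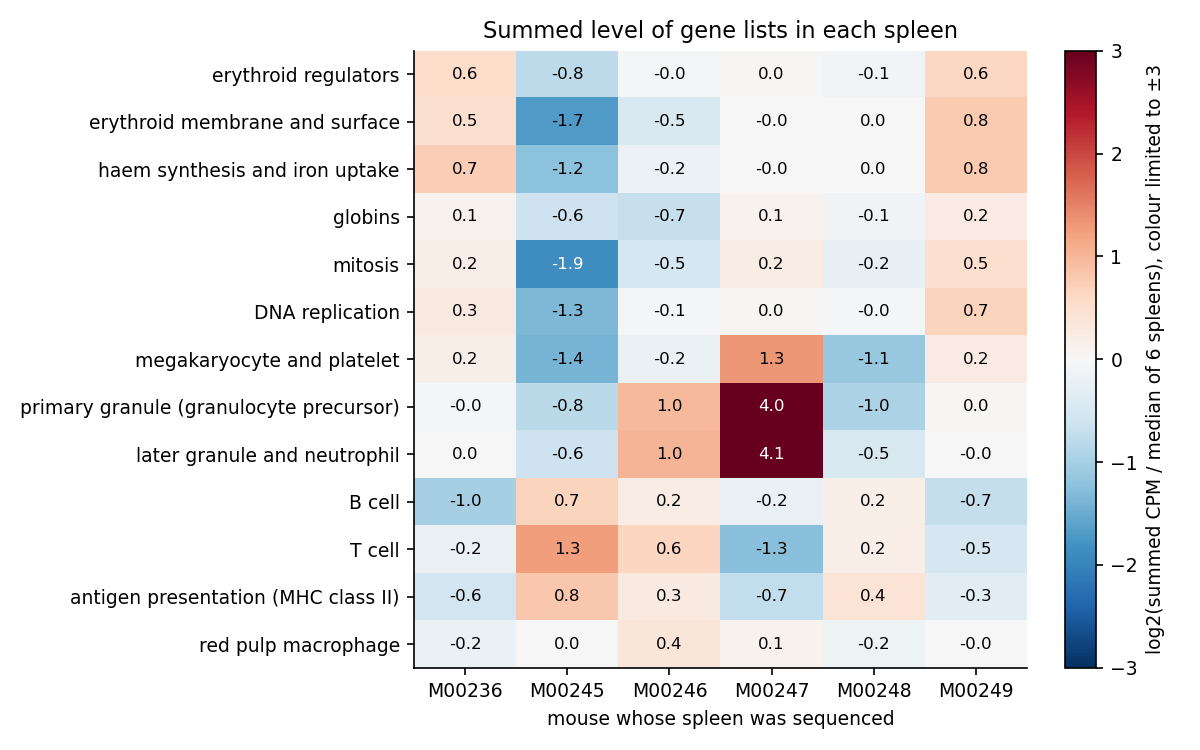
Summed CPM of 13 gene lists in each of the 6 spleens, as log2 of the ratio to the median of the 6 spleens; red is above and blue below the median, and colours are limited to ±3. The M00245 column is low for red cell and mitosis lists and high for lymphocyte lists, and the M00247 column reaches 4.0 and 4.1 for the granule lists.

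By the rule for naming genes, the 15 genes with the largest spread among spleens were Rpl17-ps3, Cela2a, Amy2a5, Rps6-ps4, Cpa1, Cela3b, Tpsb2, Xist, S100a8, Amy2a3, Amy2a2, Amy2a4, Ngp, Ltf and Mcpt4. The pseudogenes and the Amy2a copies share sequence with near-identical genes, and their values are uncertain. Cpa1, a carboxypeptidase of the exocrine pancreas, had 0.129, 5.68, 242, 0, 29.5 and 0 CPM in the spleens in mouse order, and the elastase Cela2a had 0, 7.95, 335, 0.154, 67.1 and 0 CPM. Summed over 12 pancreas genes the spleens had 17.5, 39.4, 1180.4, 27.5, 230.0 and 20.5 CPM, and the islet hormone genes Ins1, Ins2 and Gcg did not exceed 1.10 CPM in any spleen. All 9 tested pancreas genes were higher in spleen than the mean of the other tissues, but 3 of 9 with the mouse as a block, and 1 of the 2 genes still tested without the M00245, M00246 and M00248 spleens. The rest of the 9 passed the filter on low counts only through those spleens, and all 9 were highest in the M00246 spleen. The count of 9 therefore does not show a difference shared by all spleens. Adipocyte genes summed to 1.17, 65.2, 5.64, 1.84, 70.00 and 2.20 CPM, with the M00245 and M00248 spleens highest. Xist, the RNA of the inactive X chromosome, had 1.81, 0.649, 0.551, 244.9, 0.862 and 0.732 CPM in the spleens, and mouse M00247 also had 264 CPM in lung and 125 CPM in liver.

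Nrg1, the neuregulin part of the fusion, was not set apart in spleen. It had 8.16, 19.5, 2.34, 11.5, 12.9 and 26.9 CPM in the spleens in mouse order, against 0.675 to 83.3 in livers, 1.30 to 38.5 in muscles, 5.37 to 111 in lungs, 21.2 to 22.9 in brains and 26.3 in kidney. The low end in liver, muscle and lung was mouse M00246, and the tissues overlapped. The difference from the mean of the tissues (log2 fold change -1.41 ± 0.62 (SE), adjusted p = 0.0543) was past the threshold without mouse M00246 in any tissue, at -1.31 with an adjusted p of 0.00523, and with the mouse as a block, at -1.19 with an adjusted p of 0.00673.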

How the data were processed

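RNA of frozen normal tissue sections was sequenced as QuantSeq 3' end libraries on a HiSeq4000, per the labels' protocols. The authors deposited expected counts per gene in 1 table for all tissue samples, in which 8.14% of values are not whole. For the aligner, the counter and the build, the status is: not given in the sources used here. Counts were rounded, which changed the grand total over the 30 libraries by 0.00053%, with rises and falls set off against each other. A plain count table had been assumed when the test was chosen. The 6 spleen, 8 liver, 7 lung, 6 muscle, 2 brain and 1 kidney libraries labelled normal were grouped by title, and no column was left without a sample.

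After a filter on low counts (edgeR's filterByExpr), 21733 genes were tested with edgeR 4.0.16 (R 4.3.3), with TMM factors and quasi-likelihood tests, adjusted by Benjamini-Hochberg over all genes at 0.05. TMM factors were 1.05 to 1.47 in spleens, 1.38 to 1.54 in lungs and 0.619 to 0.734 in livers. CPM used plain library totals. A count of 3 is 0.299 to 0.517 CPM, and this limit covers counting error only. No pair of spleens agreed within counting noise in a chi-square test over genes.

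Mice link tissues, so the mouse was also fitted as a replicate block beside the tissue. Deviations from the tissue mean of the same mouse correlated at 0.034 to 0.211 between spleen and liver (5 pairs), 0.025 to 0.349 between spleen and lung (5 pairs) and 0.01 to 0.125 between spleen and muscle (4 pairs), and the pairing comes from the mouse numbers in the labels. Alternatives were other scalings and filters, DESeq2 1.42.0 on the same counts, leaving out libraries, tissues or abundant genes, and pooling the other tissues; library totals and leaving out the M00245 and M00247 spleens, the 3 spleens with pancreas genes or mouse M00246 were chosen after seeing the data.

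Members and gene lists were chosen with earlier results of these data known. Named genes were the 15 highest and 8 lowest fold changes among genes whose groups did not overlap (mean of at least 20 CPM), the 15 with the largest spread among spleens (mean of at least 20 CPM), all 12 red cell regulators, and up to 8 members of each list with the highest mean in spleen. Other list members named as examples or exceptions were chosen after their values were seen. Some genes of the lists are counted in them but not reported singly here.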

Additional observations from a re-analysis of the deposited data

Results flagged for a closer look

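Single spleens stood far from the other 5 in 20 of 124 gene sums and gene levels that were looked at. The rule flags about 1 in 20 by chance, but the count of flags cannot be judged against that rate. Some of the genes were named for their large spread among these same spleens, which favours flags. Near-identical Amy2a copies were also counted singly, and some genes were counted both singly and within a sum. The M00247 spleen had the highest sums of primary granule genes (1443 CPM, the next spleen 178), later granule and neutrophil genes (22870 CPM, the next 2691) and basophil and mast cell genes (286.3 CPM, the next 43.4). The same spleen stood apart for S100a8 (8894 CPM, the next 522), Ngp (2071 CPM, the next 150.3), Ltf (663.4 CPM, the next 48.5), Mpo (570.8 CPM, the next 51.8), Xist (244.9 CPM, the next 1.81), Tpsb2 (196.3 CPM, the next 1.55) and Mcpt4 (149.1 CPM, the next 1.10). Ngp and Ltf encode proteins of neutrophil granules.

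The M00246 spleen had the highest sums of pancreas genes (1180 CPM, the next 230) and hepatocyte genes (305.9 CPM, the next 138.3), and of the genes Ighg3 (4304 CPM, the next 659.4), Cela2a (334.7 CPM, the next 67.1), Cpa1 (242.3 CPM, the next 29.5), Cela3b (137.7 CPM, the next 25.5) and Amy2a3, Amy2a2 and Amy2a4 (115.8 CPM each, the next 6.66). The Amy2a copies cannot be told apart in this table. The M00249 spleen had the highest sum of lung epithelium genes (189.1 CPM, the next 82.0). What set these libraries apart was not tested.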

How the results depend on the processing

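Of 86 fold changes of named genes under up to 20 alternatives, 1640 of 1686 values kept direction and side of the threshold, 10 lost the threshold, 20 gained it and 16 changed sign. All 16 belong to differences that were not past the threshold: Aqp1 against lung (-0.53 to 0.0020 leaving out 1 spleen at a time, 0.33 without the 3 pancreas spleens) and 5 genes against liver apart from Fam210b (0.18 with library totals). These were Cpox (-0.055 to 0.51 leaving out 1 spleen), Tmem14c (0.0012 with RLE and with DESeq2, 0.65 with library totals, -0.28 to 0.054 leaving out 1 spleen, 0.089 without M00245 and M00247, 0.29 without the 3 pancreas spleens), Alad (-0.097 with the replicate block, -0.19 to 0.39 leaving out 1 spleen), Slc40a1 (-0.013 with the block, -0.0041 to 0.20 leaving out 1 spleen, -0.032 without the 3 pancreas spleens) and Cd5l (0.039 with library totals). The 10 losses were Cd74 against lung (5 settings), S100a8 (3), Pf4 (1, with pooled tissues) and Ebf1 against lung (1), and the 20 gains were Nrg1 (6), Ldb1 (3), Myb against lung (1) and, against liver, Cpox (3), Alad (2), Fam210b (2), Cd5l (2) and Slc40a1 (1). Counts of genes moved by over 1.5 times in 6 cases: 3646 higher than the mean with the 24 other libraries pooled, 11277 higher and 3410 lower than liver with library totals, 2073 higher and 1567 lower than each tissue when only 3 tissues were left, and 463 with every spleen below with TMM-scaled CPM.

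With the mouse as a replicate block, 5087 genes were higher and 5136 lower than the mean, 917 and 580 than each tissue, 3771 and 5181 than lung, and 6726 and 5317 than liver. Leaving out 1 spleen at a time gave spreads of 1.62 to 2.63 for regulators, 2.40 to 5.60 for membrane, 1.96 to 4.01 for haem, 1.98 to 3.05 for late red cell, 2.04 to 5.21 for mitosis, 1.64 to 4.01 for replication, 3.10 to 6.58 for megakaryocyte, 3.80 to 30.9 for primary granule, 3.10 to 26.4 for later granule, 3.36 to 5.71 for T cell and 1.23 to 1.48 for red pulp macrophage genes (highest over lowest summed CPM). Without the M00245 and M00247 spleens together the ranges were 1.62-fold for regulators, 2.40 for membrane, 1.96 for haem, 1.98 for late red cell, 2.04 for mitosis, 1.64 for replication, 2.61 for megakaryocyte, 3.80 and 2.83 for primary and later granule, and 2.21 for T cell genes. CPM near 0.3 to 0.5 is the limit of detection here, and contrasts with brain and kidney rest on shared spread.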

Other observations

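Genes of the tissues that served as comparison were mostly lower in spleen than in the mean of the other tissues. These tissues make up that mean, so the direction follows from how the lists were picked and is a description only. All 7 hepatocyte genes were lower than the mean of the other tissues, with summed levels of 91.7 to 306 CPM in spleens and 39139 to 68472 CPM in livers. All 6 lung epithelium genes were lower as well, with 43.1 to 189 CPM in spleens and 21864 to 77621 CPM in lungs. Striated muscle genes were lower for 5 of 7 (14.7 to 69.96 CPM in spleens, 12882 to 24644 CPM in muscles), neuron and glia genes for 4 of 6 (2 with library totals; 50.4 to 71.6 CPM in spleens, 8949.7 to 9482 CPM in brains) and kidney tubule genes for 3 of 5 (1.68 to 4.83 CPM in spleens, 10974 CPM in kidney). Of 6 mesothelium genes, which can mark the capsule, 2 were higher and 2 lower, near the 28.5% and 25.9% of all genes. Without the M00245, M00246 and M00248 spleens these were 0 and 1. The sums were 8.68, 13.5, 6.47, 9.38, 11.4 and 4.27 CPM in the spleens of mice M00236, M00245, M00246, M00247, M00248 and M00249, in that order.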
